A study of Mus musculus with 4 samples.

Results

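The immunoglobulin variable (V) segments of mouse pancreatic islet RNA were the Ighv genes of the heavy chain and the Igkv genes of the kappa light chain whose counts, summed over control islets and the islets labelled as a knockout of IMP2, reached 20. This rule kept 136 of the 278 Ighv and Igkv identifiers among 43629 counted genes, 69 of 175 for the heavy chain and 67 of 103 for the kappa chain. It used the counts of both islet libraries, so the levels in those libraries and their ratio are given as a description. The RNA immunoprecipitation (RIP) and IgG libraries were not part of the rule.

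Pancreatic islets are the clusters of hormone-secreting cells of the pancreas. The series holds 1 library per group, all labelled C57BL/6 strain: islets of genotype control, islets of genotype Rip2;IMP2 (called an islet-specific knockout), RNA immunoprecipitated with IMP2 from WT islets, and a library labelled IgG from WT islets, the usual antibody control. IMP2 is an RNA-binding protein encoded by Igf2bp2, and the Rip2 of the genotype usually denotes the rat insulin promoter, which is active in beta cells and not in B cells. The sources used here do not give the ages of the mice or how many animals went into a library. With 1 library per group no difference has a replicate check, no p-value is given, and every interval compares 2 libraries and covers counting error only. Reads are not molecules or cells.

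Each B cell builds its antibody genes by joining 1 V segment to joining segments (and, in the heavy chain, a diversity segment), and the joined gene is then kept by its daughters. The mix of V segments in an RNA sample is therefore a record of which B cell clones gave RNA to it, and plasma cells, which secrete antibody, weigh most because each holds much antibody RNA. B-1 cells are a self-renewing B cell type of the body cavities that makes natural IgM. A well-known set of B-1 cells binds phosphatidylcholine with antibodies built from Ighv11-2 with Igkv14-126, or from Ighv12-3 with Igkv4-91.

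Library depth was 26350813 gene counts in control islets, 24275628 in the library labelled knockout, 6025594 in the RIP and 13195732 with IgG. Igf2bp2 itself had 255, 222, 186 and 458 counts in this order. Its ratio of library labelled knockout over control was 0.978 (0.813 to 1.17), an interval that includes 1, so directions are drawn between libraries, not genotypes. Ins1 and Ins2 made up 29.9%, 32.1%, 22.5% and 0.0931% of gene counts. The IgG library thus held little islet hormone RNA. It held Ucp1, a heat-producing protein of brown fat cells, at 4121 CPM (counts scaled to a total of 1e6), against 186 for the RIP and 0.190 and 0.577 for control and the library labelled knockout. Gm42418, a gene that overlaps ribosomal RNA, took 17.6% of gene counts in the RIP and 1.53% in control. Reads that align to more than 1 place are not assigned to a gene by this kind of counting, and they were 30.7%, 28.4%, 36.0% and 48.2% of all deposited counts.

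Near-identical segments limit what a V count can say, and the sequences of the leading segments show how far. The stretches printed here are the last coding bases (at most 300) of the V exon, 5′ to 3′ on the coding strand, from the GENCODE M21 transcripts (GRCm38, the same assembly as mm10). Capitals mark bases that differ from the most alike other annotated V segment of the same chain in an alignment. The first 3 are from the heavy chain: Ighv11-2, which led the library labelled knockout and the RIP, Ighv1-26, which led control islets, and Ighv1-18, the segment most like Ighv1-26.
Ighv11-2: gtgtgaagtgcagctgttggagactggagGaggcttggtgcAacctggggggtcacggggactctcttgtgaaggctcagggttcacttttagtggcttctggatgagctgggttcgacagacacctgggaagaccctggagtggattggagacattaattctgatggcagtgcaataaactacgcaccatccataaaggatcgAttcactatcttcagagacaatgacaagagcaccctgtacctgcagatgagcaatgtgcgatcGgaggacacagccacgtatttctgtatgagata
Ighv1-26: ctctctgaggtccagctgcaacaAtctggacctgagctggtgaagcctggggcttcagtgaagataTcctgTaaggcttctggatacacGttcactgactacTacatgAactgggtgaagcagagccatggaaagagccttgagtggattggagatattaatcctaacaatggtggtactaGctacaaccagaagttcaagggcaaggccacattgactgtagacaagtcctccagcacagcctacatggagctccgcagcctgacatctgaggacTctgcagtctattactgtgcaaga
Ighv1-18: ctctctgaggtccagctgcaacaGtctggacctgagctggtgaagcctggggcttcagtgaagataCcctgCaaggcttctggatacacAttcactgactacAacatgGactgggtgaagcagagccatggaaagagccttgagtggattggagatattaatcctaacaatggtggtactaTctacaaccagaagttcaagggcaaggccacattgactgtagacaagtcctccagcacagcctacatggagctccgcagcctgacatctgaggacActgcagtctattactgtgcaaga
The Ighv11-2 stretch (chr12:114048241-114048540, minus strand) differed at 4 positions from Ighv11-1, which had 2, 0, 0 and 0 counts in the 4 libraries. The Ighv1-26 (chr12:114788372-114788671, minus strand) and Ighv1-18 (chr12:114682632-114682931, minus strand) stretches differed from each other at 8 positions, an identity of 97.3%.

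The kappa chain stretches are those of Igkv14-126 and Igkv12-89, the leading pair in the library labelled knockout and in the RIP, and of Igkv10-96, which led control islets.
Igkv14-126: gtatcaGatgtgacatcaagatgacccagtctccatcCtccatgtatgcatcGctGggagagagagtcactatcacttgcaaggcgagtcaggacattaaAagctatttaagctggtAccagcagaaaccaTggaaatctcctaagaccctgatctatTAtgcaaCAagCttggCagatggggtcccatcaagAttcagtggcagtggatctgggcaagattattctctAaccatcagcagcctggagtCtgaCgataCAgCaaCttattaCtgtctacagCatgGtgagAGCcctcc
Igkv12-89: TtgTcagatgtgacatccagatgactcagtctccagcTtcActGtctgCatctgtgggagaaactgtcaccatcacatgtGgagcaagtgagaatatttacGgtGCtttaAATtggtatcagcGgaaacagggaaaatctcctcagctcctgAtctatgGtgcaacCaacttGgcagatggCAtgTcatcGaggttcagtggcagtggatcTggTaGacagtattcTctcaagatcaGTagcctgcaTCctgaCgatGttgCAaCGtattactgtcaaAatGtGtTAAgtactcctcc
Igkv10-96: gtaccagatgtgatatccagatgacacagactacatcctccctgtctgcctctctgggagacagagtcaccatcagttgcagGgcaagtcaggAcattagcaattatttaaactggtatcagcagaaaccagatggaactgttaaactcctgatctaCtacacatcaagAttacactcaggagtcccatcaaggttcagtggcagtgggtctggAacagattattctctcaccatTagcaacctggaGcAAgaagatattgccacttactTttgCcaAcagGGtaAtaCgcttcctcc
Igkv14-126 (chr6:67896345-67896642, plus strand) differed from its most alike segment, Igkv14-111, at 27 positions, and Igkv12-89 (chr6:68834846-68835143, minus strand) from Igkv12-46 at 42. Igkv10-96 (chr6:68631963-68632260, minus strand) differed from Igkv10-94 at 16. Both leaders of the library labelled knockout thus stand well apart from other segments, and 100% of their 50-base words occur in no other annotated V transcript. That share was 61.4% for Ighv11-2, 51.0% for Ighv1-26 and 67.4% for Igkv10-96. Over all 136 members it ranged from 7.49% (Ighv1-72) to 100% with a median of 76.2%, and 17 members were below 50%. Mutations that B cells add to V segments during immune responses can also keep reads from aligning. Their part in the counts was not tested.

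Control islets held more V segment RNA than the library labelled knockout in both chains. Heavy chain V segments summed to 6526 counts in control islets, 1068 in the library labelled knockout, 291 in the RIP and 6 with IgG, or 248, 44.0, 48.3 and 0.455 CPM. Kappa V segments summed to 9812, 2434, 441 and 4 counts, or 372, 100.3, 73.2 and 0.303 CPM. With library sizes adjusted by TMM (a trimmed mean over genes of the log ratios between libraries), the heavy sum was 5.44-fold lower in the library labelled knockout than in control (95% interval 5.10 to 5.81) and the kappa sum 3.59-fold lower (3.43 to 3.75). In bulk RNA, fewer B cells and less RNA per B cell cannot be told apart. The constant regions, which every antibody transcript carries, were also lower, by 4.09-fold for the heavy chain sum and 3.29-fold for Igkc. Ighm, the IgM constant region, took 44.4% of heavy constant counts in control, 79.7% in the library labelled knockout, 76.3% in the RIP and 79.8% of the 89 heavy constant counts with IgG.

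Usage was broad in control islets and concentrated on a few segments in the library labelled knockout. The leading heavy segment in control was Ighv1-26 with 603 counts, 9.24% of heavy V counts (exact binomial 95% interval 8.55 to 9.97). In the library labelled knockout it was Ighv11-2 with 247 counts, 23.1% (20.6 to 25.8). The leading kappa segment was Igkv10-96 in control with 1003 counts, 10.2% (9.63 to 10.8), and Igkv14-126 in the library labelled knockout with 964 counts, 39.6% (37.7 to 41.6). Levels between segments were compared per length: Igkv14-126 stood at 2693 counts per kilobase of exon in the library labelled knockout against 145 for Igkv10-96, while in control they stood at 464 and 2794. On the same scale Ighv11-2 stood at 536 in the library labelled knockout against 34.2 for Ighv1-26, and at 119 against 1718 in control. The order of the leading segments was thus turned around between the islet libraries in both chains.

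**Figure D1:**
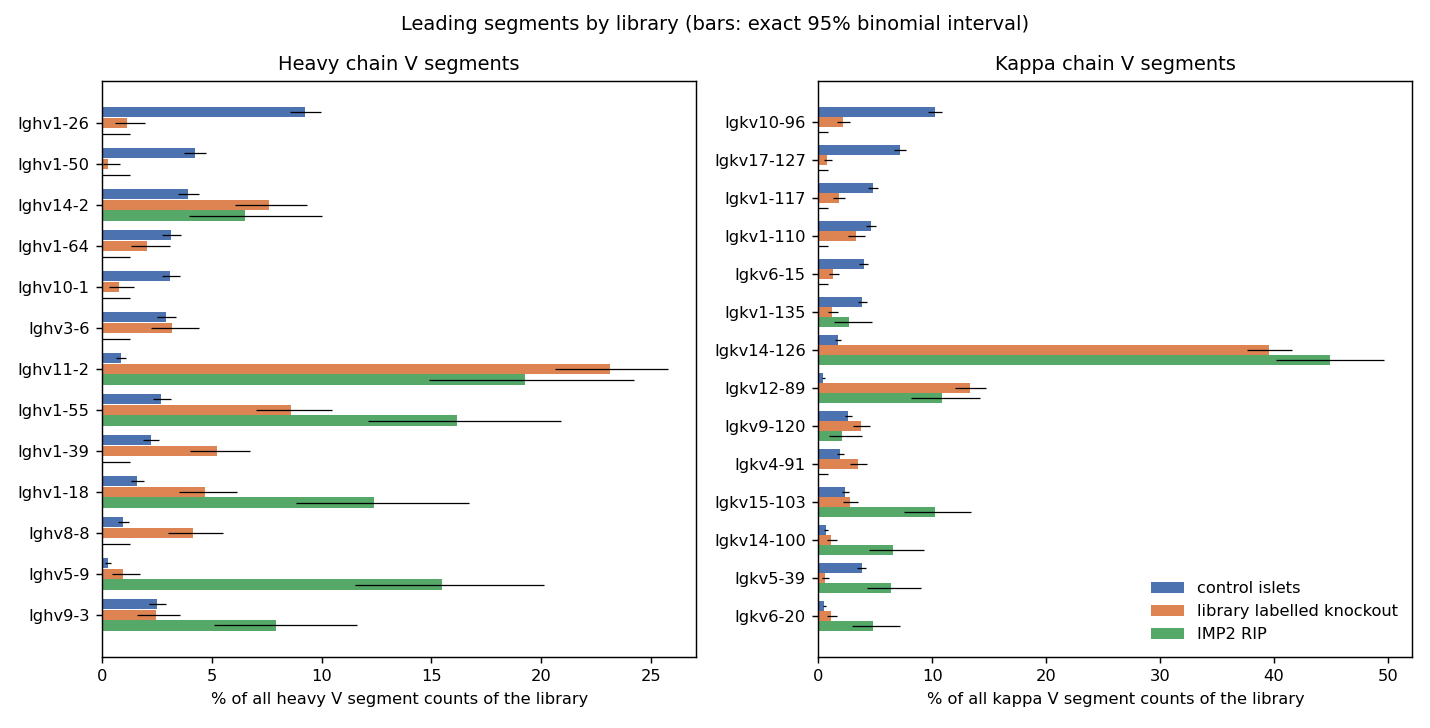
Share of the chain's V segment counts (horizontal axis, %) of the 6 members with the most counts in each of control islets, the library labelled knockout and the IMP2 RIP, with heavy segments at left and kappa segments at right. Lines are exact 95% binomial intervals; Ighv11-2 (23.1% and 19.2%) and Igkv14-126 (39.6% and 44.9%) lead the library labelled knockout and the RIP, and hold 0.843% and 1.69% in control.

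The 5 leading segments together took 23.6% of heavy V counts in control and 49.3% in the library labelled knockout, and 30.7% and 63.4% of kappa V counts. The effective number of segments, which is the number of equally used segments that would give the same chance that 2 reads share a segment, does not grow with depth. It was 39.2 in control and 12.7 in the library labelled knockout for the heavy chain, with counting intervals of 37.5 to 41.1 and 11.2 to 14.6. For the kappa chain it was 29.5 (28.5 to 30.5) and 5.49 (5.09 to 5.95). The counting intervals of the islet libraries do not overlap in either chain. The number of segments seen differed less: control thinned to the 1068 heavy counts of the library labelled knockout gave 84.8 expected segments against 81 seen, and thinned to 2434 kappa counts 84.6 against 75. In the library labelled knockout, 6 heavy and 2 kappa segments held 50% of the V counts of their chain, against 17 and 12 in control.

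**Figure D2:**
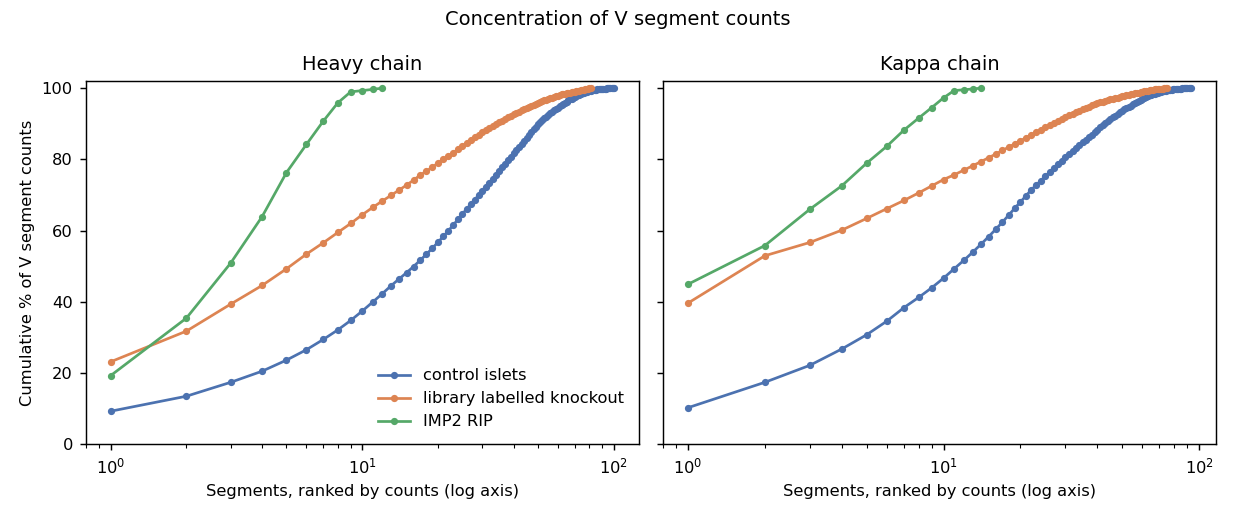
Cumulative share of V segment counts (vertical axis, %) over segments ranked by counts (horizontal log axis) in control islets, the library labelled knockout and the IMP2 RIP, heavy chain at left and kappa chain at right. The control curve is the lowest in both chains: 17 heavy and 12 kappa segments reach 50% there, against 6 and 2 in the library labelled knockout.

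The effective numbers were also taken without leading segments. With Igkv14-126 and Igkv12-89 left out, a choice made after their values were seen, the effective kappa number was 28.5 in control and 28.4 in the library labelled knockout. The pair held only 1.69% and 0.397% of kappa V counts in control, so this step takes leaders from the library labelled knockout alone. With the leading segment of each library left out instead, the kappa numbers were 34.3 and 14.3. With Ighv11-2 left out, the heavy number was 38.7 in control and 23.1 in the library labelled knockout, so the heavy chain kept a lower number without its leader. V counts of the library labelled knockout were 7.02-fold lower than control in the heavy chain without Ighv11-2. In the kappa chain they were 7.47-fold lower without Igkv14-126 and Igkv12-89. The segments left out were chosen after their values were seen and were higher in the library labelled knockout. Both folds therefore had to exceed those of the full sums, and nothing is read from their size.

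Only 3 members were called higher in the library labelled knockout than in control, and they were its leaders. Calls were made on members with a mean of at least 1 CPM over both libraries and required a scaled ratio of 1.5-fold or more with an interval that left out 1. Of 136 members 98 reached that mean, 3 were called higher and 90 lower, where 6.11% of all measured genes were called higher, 15.4% lower and 21.5% in all. Nothing is read from these shares, since the members were chosen on the same libraries. The median log2 ratio over the 136 members was -3.26, against 0.00 over all measured genes.

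Igkv14-126 had 166 counts in control, 964 in the library labelled knockout, 198 in the RIP and none with IgG. Its ratio of library labelled knockout over control was 6.52 (5.53 to 7.74). Igkv12-89 had 39, 324, 48 and 0 counts and a ratio of 9.33 (6.68 to 13.4). Ighv11-2 had 55, 247, 56 and 0 counts and a ratio of 5.04 (3.75 to 6.88). All 3 were high in the library labelled knockout and the RIP, and none had a count in the IgG library. The heavy member and Igkv14-126 are the partners of the phosphatidylcholine-binding B-1 antibody named above, although bulk counts do not show which heavy and light chains came from the same cell.

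The other segments of the B-1 list were not called higher. Ighv12-3 had 31 counts in both islet libraries and 0 in the RIP and the IgG library, with a ratio of 1.12 (0.660 to 1.91). Its light chain partner Igkv4-91 had 188 counts in control, 84 in the library labelled knockout, and 0 in the RIP and the IgG library. Igkv4-91 was called lower, by 1.99-fold (1.53 to 2.61), which is less than the 3.59-fold of the kappa sum. As shares of their chain, Ighv12-3 went from 0.475% to 2.90% and Igkv4-91 from 1.92% to 3.45%. Ighv11-1 was below the limit of 20 counts.

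Members at the other end nearly vanished. Ighv1-26 had 603 counts in control and 12 in the library labelled knockout and was 44.8-fold lower (25.4 to 87.1). Its near neighbour in sequence, Ighv1-18, printed above, had 104 and 50 counts and was 1.85-fold lower (1.31 to 2.65). The pair thus differed widely in ratio although 8 positions set the printed stretches apart. Ighv1-50 had 275 and 3 counts (81.6-fold lower, 27.6 to 398), and Ighv14-4 had 104 and 0 (30.9-fold lower against 3 counts, lower limit 24.7). Ighv1-15 had 75 and 0 counts (22.3-fold lower against 3 counts, lower limit 17.7).

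In the kappa chain Igkv17-127 had 701 counts in control and 19 in the library labelled knockout (32.9-fold lower, 20.9 to 54.9), and Igkv5-48 had 283 and 7 (36.0-fold lower, 17.2 to 90.4). Igkv6-25 had 115 and 1 counts, for a ratio of 0.00976 (0.000245 to 0.0555). Igkv3-7 had 130 and 0 counts (38.6-fold lower against 3 counts, lower limit 30.9). Igkv10-96, the leader in control, went from 1003 to 52 counts (17.2-fold lower, 13.0 to 23.2).

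Between these extremes lay other abundant members. Ighv1-55 had 176 counts in control and 92 in the library labelled knockout (1.70-fold lower, 1.32 to 2.22), Ighv14-2 255 and 81 (2.80-fold, 2.18 to 3.65), and Ighv1-39 145 and 56 (2.31-fold, 1.68 to 3.20). Ighv8-8 with 63 and 44 counts was not called (ratio 0.784, 0.521 to 1.17). Igkv9-120 had 257 and 91 counts (2.52-fold lower, 1.97 to 3.23), Igkv15-103 233 and 67 (3.10-fold, 2.35 to 4.13) and Igkv1-110 450 and 80 (5.01-fold, 3.94 to 6.44). Over the measured members the ratios had a median of 0.0832 in the heavy chain, with the middle 50% from 0.0356 to 0.184, and 0.0896 in the kappa chain, from 0.0584 to 0.314. The counting intervals of Ighv1-55 and Ighv1-26 do not overlap, and neither do those of Igkv9-120 and Igkv10-96. These pairs were picked for their unlike values, and overlap was not counted over all members.

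**Figure D3:**
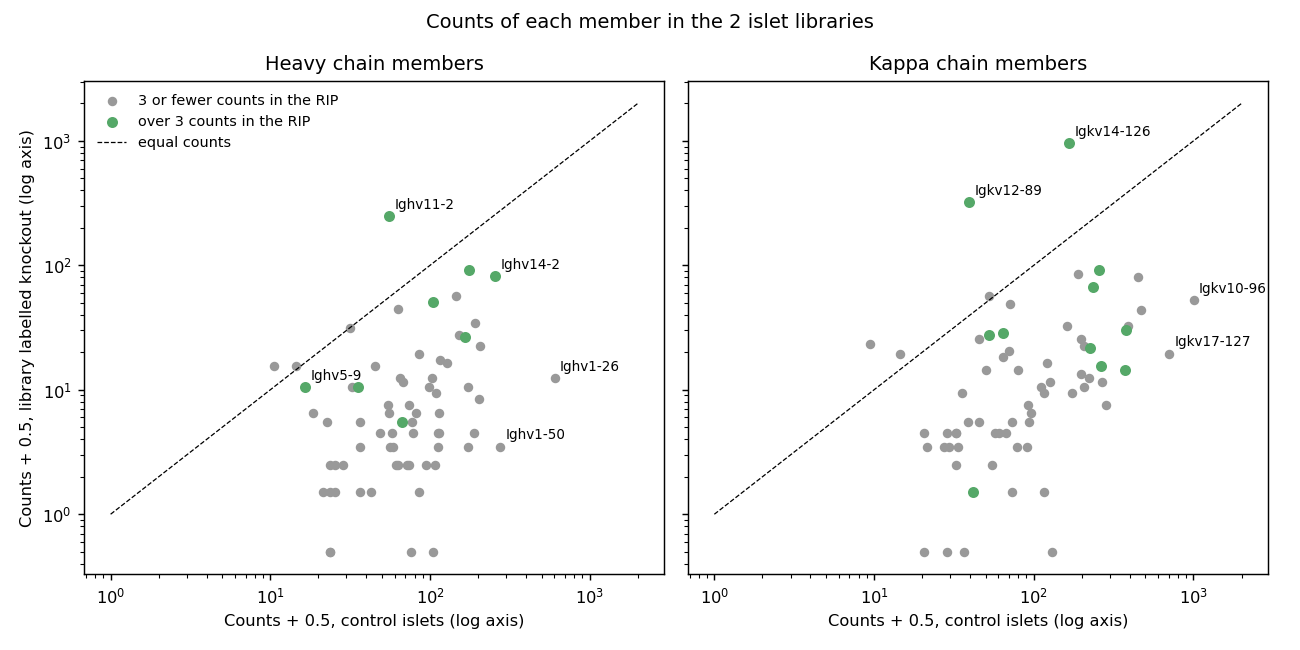
Counts plus 0.5 of each of the 69 heavy (left) and 67 kappa (right) members in control islets (horizontal log axis) and in the library labelled knockout (vertical log axis), with members over 3 counts in the RIP in green and equal counts as a dashed line. Ighv11-2, Igkv14-126 and Igkv12-89 stand above the line and are green, while Ighv1-26, Ighv1-50, Igkv10-96 and Igkv17-127 lie far below it.

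V families are groups of segments of like sequence, given by the first number of the symbol. The Ighv1 family is the largest of the locus with 86 identifiers and 36 members. It took 57.9% of heavy V counts in control (56.7 to 59.1) and 38.3% in the library labelled knockout (35.4 to 41.3). All 25 of its measured members were called lower. This was not particular to Ighv1, since 46 of all 49 measured heavy members were called lower, against 15.4% of all measured genes. The Ighv11 family, with 1 member, went from 0.873% to 23.1%. Ighv10 went from 4.81% to 1.12% and Ighv2 from 5.98% to 3.37%, while Ighv8 went from 2.50% to 6.09%. In the kappa chain the Igkv14 family went from 4.63% to 41.2% and Igkv12 from 6.26% to 14.7%. The families Igkv10 (12.5% to 3.25%), Igkv17 (9.86% to 1.23%) and Igkv5 (8.89% to 1.60%) took smaller shares in the library labelled knockout. Within Igkv14 the rise was that of Igkv14-126, since the other 2 measured members were called lower, and within Igkv12 that of Igkv12-89, with 4 others called lower.

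Position along the locus was compared next. Ordered by distance from the joining segments and split into 3 nearly equal runs, the nearest heavy run took 27.4% of counts in control (26.3 to 28.5) and 45.8% in the library labelled knockout (42.8 to 48.8), and it holds Ighv11-2 and Ighv14-2. The middle heavy run went from 32.7% to 19.9% and the farthest from 39.9% to 34.4%. The farthest kappa run took 52.1% (51.1 to 53.1) and 65.2% (63.2 to 67.1) and holds Igkv14-126, while the nearest kappa run went from 28.9% to 12.8%. Without Ighv11-2, a choice made after the values were seen, the nearest heavy run took 26.8% (25.7 to 27.9) and 29.5% (26.4 to 32.7), and the farthest went from 40.2% to 44.7%, the opposite direction. Without Igkv14-126 the farthest kappa run took 51.3% (50.3 to 52.3) in control and 42.3% (39.8 to 44.9) in the library labelled knockout, also the opposite direction. Igkv12-89 of the middle run, with 324 counts in the library labelled knockout, stayed in that total. With both left out, the farthest run held 4947 of 9607 counts in control and 622 of 1146 in the library labelled knockout. The kappa reversal thus depends on Igkv12-89 being kept, and no shift of the other kappa segments is read from it. All 136 members are annotated as V genes rather than pseudogenes, although 66 of the 278 identifiers are pseudogenes, and those summed to 16 counts in control and 2 in the library labelled knockout.

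**Figure D4:**
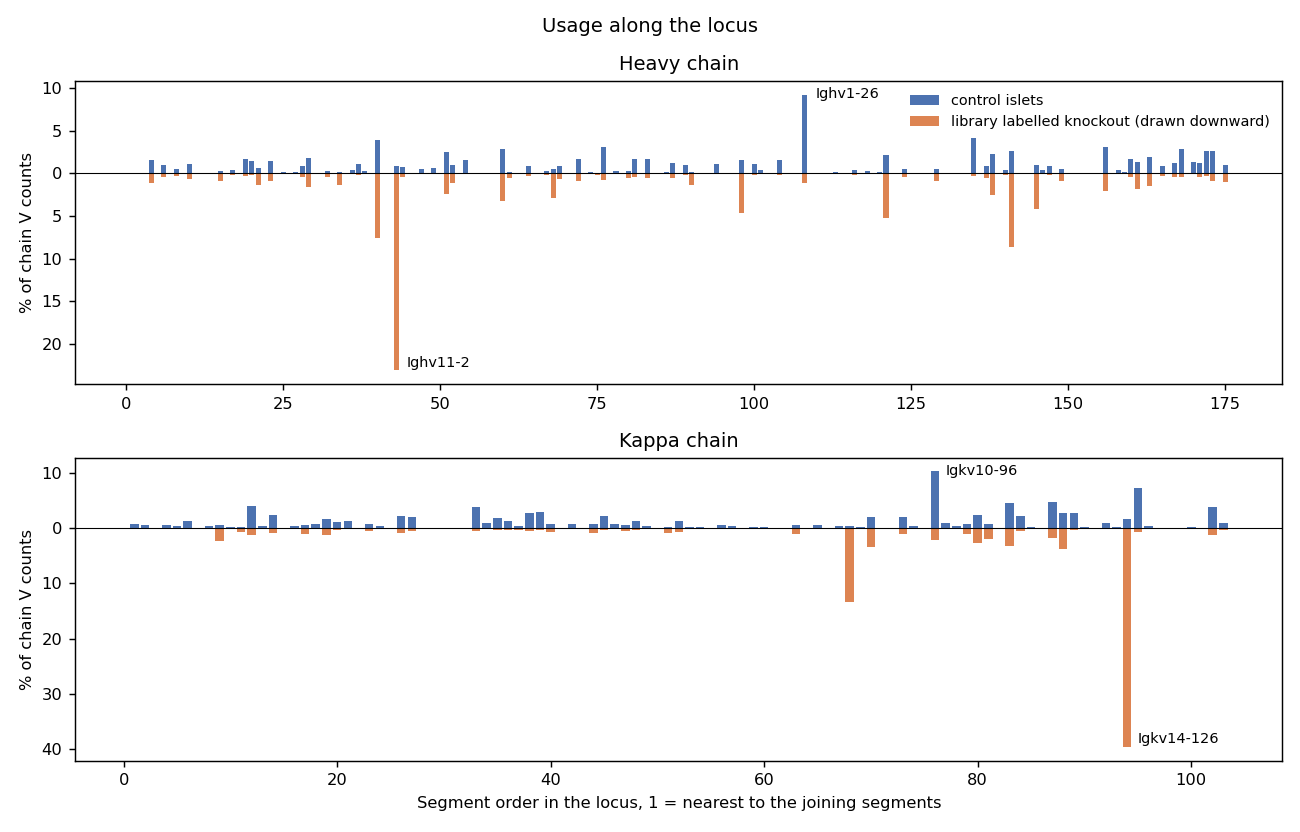
Share of the chain's V counts (vertical axis, %) for each segment in order along the locus (horizontal axis, 1 is nearest to the joining segments), heavy chain above and kappa chain below. Control islets are drawn upward and the library labelled knockout downward; the longest downward bars are Ighv11-2 (23.1%) and Igkv14-126 (39.6%).

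Overlap of usage, the sum over segments of the smaller of the 2 shares, was 49.2% between the islet libraries in the heavy chain and 39.4% in the kappa chain. Of the 10 leading segments of each library, 3 were shared in the heavy chain (Ighv1-55, Ighv14-2 and Ighv3-6) and 3 in the kappa chain (Igkv1-110, Igkv1-117 and Igkv10-96). Detection overlapped more, with 78 heavy segments seen in both libraries, 22 in control alone and 3 in the library labelled knockout alone, and with 73, 20 and 2 kappa segments. Segments seen in control alone are partly set by its larger V counts. Thinned to those of the library labelled knockout, control gave 84.8 of its 100 heavy and 84.6 of its 93 kappa segments. Over all genes 24350 were detected in control and 24412 in the library labelled knockout, and their overlap was not computed.

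Other antigen receptor and B cell genes moved as follows, from lists given for context. Of the 3 lambda V segments, Iglv1 had 824 counts in control and 82 in the library labelled knockout and Iglv3 had 182 and 18, both called lower, while Iglv2 had 142 and 128 (ratio 1.01). T cell receptor V segments summed to 659 and 58 counts, 10.1-fold lower (7.73 to 13.5). Over all measured genes 15.4% were called lower and 6.11% higher in this comparison. All 12 B cell genes were called lower, with a summed level 5.17-fold lower (Ms4a1, which encodes CD20, had 5475 and 924 counts). Of 9 measured plasma cell genes 6 were called lower and 0 higher. Jchain, which joins IgM and IgA units, was called lower with 4008 and 1108 counts. Sdc1, Prdm1 and Xbp1 were not called, with ratios of 0.676, 0.871 and 1.42. The plasma cell sum was only 1.42-fold lower, and Xbp1, with 6191 and 7816 counts, weighed much in it. All 5 measured germinal centre genes were called lower. Of the recombination list only Vpreb3 was measured (250 and 22 counts, called lower). Rag1, which cuts DNA for V segment joining, had 4 and 1 counts. The part of lymphocyte content in the V segment values was not tested.

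In the RIP few V segments were recovered. Of the 136 members 24 had any count and 19 had over 3, while 112 were at 0, among them 74 of the 94 members with at least 50 counts in control. Over all genes, 15380 were detected in the RIP and 24350 in control, which was sequenced deeper. The share at 0 among all genes of like control counts was not computed, so nothing particular to V segments is read from these counts. The number of molecules behind the V counts is not known from reads, but 1 estimate can be made. The median count of the 230 genes with over 5 counts in the RIP that were at 0 in both islet libraries was 18, which taken as reads per molecule gives about 16 heavy and 24 kappa molecules. The cutoff of over 5 counts, and any of these genes with more than 1 molecule, would make 18 too high. A count of 0 allows up to 0.498 CPM if reads are independent (3 reads) and up to 8.96 CPM on these estimated molecules (3 molecules). Control usage thinned to that many molecules gave 13.5 heavy and 17.5 kappa segments, usage of the library labelled knockout gave 10.9 and 11.5, and 12 and 14 were seen. Some of the segments seen, such as Ighv6-3 and Igkv8-30, had 1 count, far below 18, so the seen and thinned numbers are not strictly alike.

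By read counts, the recovered segments were led by the same genes as the library labelled knockout. Ighv11-2 with 56 counts took 19.2% of heavy V counts in the RIP (14.9 to 24.3), and Igkv14-126 with 198 counts took 44.9% of kappa V counts (40.2 to 49.7). Ighv1-55 with 47 counts (16.2%) and Igkv12-89 with 48 (10.9%) were next, as in the library labelled knockout. Ighv5-9 with 45 counts (15.5%) and Ighv13-2 with 38 (13.1%) followed in the heavy chain, but ranked 22 and 52 in the library labelled knockout. At 18 reads per molecule each of these heavy counts stands for few molecules, so their order is not resolved. The intervals take reads as independent and are then too narrow. Usage in the RIP overlapped by 14.6% with control and by 45.1% with the library labelled knockout in the heavy chain, and by 20.1% and 61.2% in the kappa chain. The leading control segments Ighv1-26, Ighv1-50, Igkv10-96 and Igkv17-127 were at 0 in the RIP. In both chains the overlap of the RIP was larger with the library labelled knockout. A library with few segments overlaps less with broad usage than with concentrated usage. The overlap expected at the depth of the RIP was not computed for either islet library, so no likeness is read from these values.

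No input library is among the 4, so control islets stand in for one. The heavy V sum was 4.17-fold lower in the RIP than in control (3.71 to 4.71) and the kappa sum 4.14-fold lower (3.76 to 4.57), against 5.37-fold for Igkc, 5.03-fold for the heavy constant sum and 4.84-fold for the B cell list. Over all measured genes the median log2 ratio was -0.10 (-0.40 when scaled by library totals). Of 96 measured members 8 were called higher at 2-fold or more and 83 lower, where 17.1% of all measured genes were called higher, 24.0% lower and 41.1% in all. A measured member at 0 in the RIP reached the mean of 1 CPM through control alone and so had to be called lower. Of the 19 members with over 3 counts in the RIP, 8 were called higher and 6 lower. Nothing is read from the number called lower. The median log2 ratio over the 136 members was -4.51, set by the 112 members at 0.

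The 8 members called higher in the RIP than in control were Ighv5-9, Igkv12-89, Igkv14-126, Ighv11-2, Igkv8-16, Igkv14-100, Ighv1-47 and Igkv6-20. Ighv5-9 had 16 counts in control, 10 in the library labelled knockout, 45 in the RIP and 0 with IgG, and a ratio of RIP over control of 15.1 (8.38 to 28.6). It stood at 0.607 CPM in control and reached the mean of 1 CPM only through the RIP, so nothing is read from its call. Other members called higher, such as Igkv12-89 at 1.48 CPM in control, also needed RIP counts to reach that mean. The ratio was 6.41 for Igkv14-126 (5.19 to 7.92), 6.61 for Igkv12-89 (4.24 to 10.4) and 5.47 for Ighv11-2 (3.70 to 8.08). With counts divided by the reads per molecule, these 4 were the members still called higher, and 6 were still called lower, among them Ighv1-26 and Igkv10-96. Under library totals 5 were called higher, without Igkv14-100, Ighv1-47 and Igkv6-20. Among the recovered members, Ighv1-18 with 36 counts, Ighv1-55 and Igkv15-103 with 45 counts were not called, with ratios of 1.86, 1.43 and 1.04. Igkv5-39 (28 counts, ratio 0.403) and Ighv14-2 (19 counts, 0.400) were called lower.

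**Figure D5:**
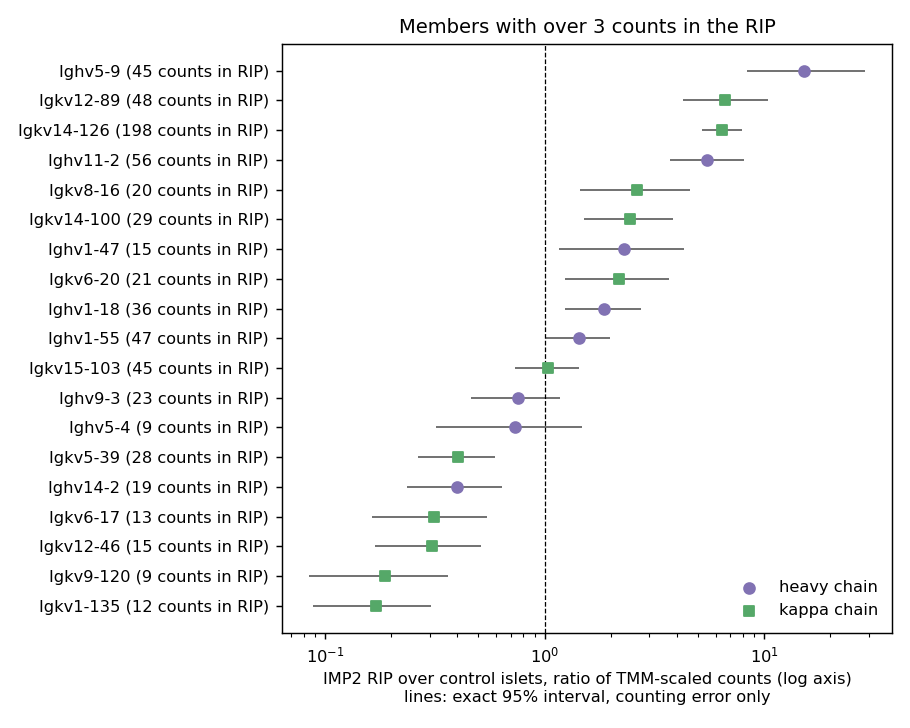
Ratio of TMM-scaled counts of IMP2 RIP over control islets (horizontal log axis) with exact 95% intervals for the 19 members with over 3 counts in the RIP, heavy chain as circles and kappa chain as squares. Ighv5-9, which reached the mean of 1 CPM only through the RIP, is highest at 15.1. Igkv12-89, Igkv14-126 and Ighv11-2 follow, and Igkv1-135 is lowest at 0.171.

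In the IgG library each of 10 members had 1 count and 126 had 0, so no V segment stood above the floor of 3 counts. Among the 10 were Igkv1-110, Igkv5-39 and Igkv6-20. Against this background Igkv14-126 was at least 89.9-fold higher in the RIP, Ighv11-2 at least 25.4-fold, Igkv12-89 at least 21.8-fold, Ighv1-55 at least 21.3-fold, Igkv15-103 at least 20.4-fold and Ighv5-9 at least 20.4-fold, each against 3 counts. The 16 members that were measured in this comparison reached the mean of 1 CPM through the RIP alone and so had to differ: all 16 were called higher, where 43.2% of all measured genes were called higher, 30.4% lower and 73.7% in all. The median log2 ratio over all measured genes was 0.45 here, and 1.13 with scaling by library totals. On estimated molecules Igkv14-126 alone was still called, with a lower limit of 2.93-fold against 72.4-fold by reads. The constant regions gave more counts in the same library, 89 for the heavy chain and 42 for Igkc, and the IgG library differed from the RIP in tissue content as given above, whose part in these ratios was not tested.

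At the limit of the rule, the members with the fewest counts were Igkv4-90 with 20 counts in control and 0 in the library labelled knockout and Ighv1-36 with 21 and 1. Just outside lay Ighv13-2 with 17 and 2 counts and Ighv3-1 with 19 and 0. Ighv13-2, although outside, had 38 counts in the RIP, 13.1% of heavy V counts there, and 0 in the IgG library.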

How the data were processed

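RNA of mouse islets was sequenced in 4 libraries. The deposited files hold whole-number read counts per Ensembl gene, made by the authors with STAR and HTSeq on mm10, per the submitters' processing notes. Tool versions, gene annotation release and strandedness setting: not given in the sources used here. Each file closes with 5 entries that name no gene; they held 50.8%, 50.3%, 72.4% and 70.5% of deposited counts and were left out. Symbols, exon lengths and transcript sequences came from GENCODE M21, which matched 42548 of 43629 identifiers.

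Library pairs were scaled by TMM over genes with a mean of at least 1 CPM in edgeR 4.0.16 under R 4.3.3. Ratios have exact Clopper-Pearson 95% intervals. A fold against 0 sets the 0 to 3 counts and is not the limit of that interval. Calls need 1.5-fold for the islet pair and 2-fold for the RIP pairs. The effective number is the inverse Simpson number. Interval bounds for it come from the multinomial variance of the counts. Thinned segment numbers are hypergeometric expectations. Other steps used Python 3.11.15 with SciPy 1.17.1, and Biopython 1.88 for alignments. The ratio and skew measures were tested on simulated data. The named members were the leading ones in each library and chain, those called with the interval farthest from 1, the B-1 list and those at the rule's limit; others were chosen after their values were seen. The members, lists and rules were chosen with earlier results of these data known. Scaling, CPM minimum, member limit, sequence uniqueness, exon length and reads per molecule were varied. Values of some genes of the context lists are not reported here.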

Additional observations from a re-analysis of the deposited data

How the results depend on the processing

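The 3 members called higher in the library labelled knockout (Ighv11-2, Igkv14-126 and Igkv12-89) were called under every alternative run for that comparison, and Igkv4-63 joined them with no CPM minimum. The 90 called lower became 17 at a mean of at least 5 CPM, where 20 members were measured, and stayed within 1.5 times otherwise. For RIP over control, the 8 called higher became 5 under library totals, 2 at 5 CPM and 4 on estimated molecules, and the 83 called lower became 15 at 5 CPM and 6 on estimated molecules. For RIP over IgG, the 16 called higher became 1 at 5 CPM and 1 on estimated molecules. No call was reversed.

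The effective heavy number in control was 37.1 over members only and 48.5 without the leading segment. In the library labelled knockout it was 15.1 with counts per exon length and 23.1 without the leading segment. The kappa number without the leading segment was 34.3 in control and 14.3 in the library labelled knockout, and 28.4 there without Igkv14-126 and Igkv12-89, an alternative chosen after seeing the data. Per exon length, Ighv11-2 and its family held 19.4% of heavy usage in the library labelled knockout, and the Igkv1 family 13.1% of kappa usage in control. Usage overlap without the leading segment of each library was 56.8% (heavy) and 52.5% (kappa). With Ins1, Ins2 and Gm42418 out of the total, heavy V segments stood at 361, 66.5 and 80.6 CPM in control, the library labelled knockout and the RIP, and kappa V segments at 543, 152 and 122. No paired analysis was possible because each group holds 1 library. Depth limits the RIP most, where a member at 0 could still be present at 0.498 CPM by reads or 8.96 CPM on estimated molecules. The difference of the library labelled knockout from control in the share of the farthest run turned from -5.52 to 4.48 percentage points in the heavy chain without Ighv11-2 and from 13.1 to -8.97 in the kappa chain without Igkv14-126, with both segments chosen after seeing the data, and the other 4 runs kept their direction. The kappa turn was computed with Igkv12-89 kept in the total and depends on it.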
